A study of Mus musculus with 2 samples.

Results

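The cells described here are Prrx1-positive cells of the library sorted for high surface CD9 from mouse pancreatic ductal adenocarcinoma. They were chosen by their single-cell counts: at least 2 UMIs (unique molecular identifiers, the counted molecules) of Prrx1, Col1a1 under 3000 CPM, Dcn under 1000 CPM and no UMI of Ptprc, where CPM is the UMIs of a gene in each 1000000 UMIs of the barcode. The rule took 805 of the 5092 barcodes kept in the CD9hi library, which is 15.8% (95% exact Clopper-Pearson interval 14.8 to 16.8%), and 7642 barcodes were kept in both libraries together. They were set beside 2773 barcodes of the same library with no Prrx1 UMI, at least 2000 CPM of Vim and at least 1000 CPM of Malat1, called Prrx1-free Vim-high barcodes from here on. Because the rule and every level below come from the same counts of 1 library, all differences are descriptions with no test and no replicate check, and every interval covers counting error only.

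The tumours arose in mice in which Flp recombinase under the Pdx1 promoter (Pdx1-Flp), which acts in the pancreatic lineage, deletes Trp53 from Trp53frt/frt. The mice also carried a Flp-dependent tamoxifen-inducible Cre, Rosa26FSF-creER, together with the membrane colour reporter Rosa26mTmG. Both libraries share this genotype, so neither is a control without these alleles. Which single cells had recombined them was not measured. Live cells of dissociated tumours were sorted on GFP or CD9, and the labels call 1 library whole tumour and the other CD9-high. The sources used here do not give the age or number of the mice, or whether both libraries came from the same tumour. The question of the series is how Jag1, a ligand of Notch receptors, relates to a hybrid EMT state among CD9hi tumour-initiating cells.

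Prrx1 encodes a paired-class homeodomain transcription factor of mesenchyme, which in the embryo marks limb and craniofacial mesenchyme and in adult organs marks fibroblasts. It is also one of the factors known to drive epithelial-mesenchymal transition (EMT), the shift in which epithelial cells lose junctions and keratins and take on motile, matrix-producing features. A Prrx1 transcript in a pancreatic tumour can therefore come from a carcinoma cell or from a fibroblast, which is why cells rich in the fibroblast products Col1a1 and Dcn were kept out of the rule.

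The promoter of Prrx1 is shown because the transcript defines the cells, and that of Klra4 because this marker belongs to a receptor family of another lineage. Both are RefSeq sequences of mouse build GRCm38.p6, 250 bases before to 50 bases after the gene start, written 5′ to 3′ on the strand of the gene. Prrx1 lies at chr1:163313601-163313900 on the minus strand, and Klra4 at chr6:130067222-130067521 on the minus strand. Capitals mark the letters TAATTA, a palindrome that reads the same on both strands and is a core site bound by paired-class homeodomains.
Prrx1: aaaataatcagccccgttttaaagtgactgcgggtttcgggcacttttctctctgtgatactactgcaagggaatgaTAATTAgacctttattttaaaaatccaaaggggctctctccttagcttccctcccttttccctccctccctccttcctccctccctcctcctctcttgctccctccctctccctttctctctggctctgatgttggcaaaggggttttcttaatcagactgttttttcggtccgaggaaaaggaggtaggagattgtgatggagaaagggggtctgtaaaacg
Klra4: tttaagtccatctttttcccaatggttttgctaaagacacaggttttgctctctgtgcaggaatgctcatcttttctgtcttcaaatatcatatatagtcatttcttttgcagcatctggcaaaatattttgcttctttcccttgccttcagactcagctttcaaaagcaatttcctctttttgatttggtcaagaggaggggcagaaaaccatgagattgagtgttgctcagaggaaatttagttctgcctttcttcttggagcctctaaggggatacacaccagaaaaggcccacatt
The Prrx1 window holds 1 match and the Klra4 window none. Of the 6 marker genes, 5 have a promoter in the table and 1 of these holds the letters, which occur in 1738 of all 32851 promoters (5.29%). These transcript counts do not measure the promoters, and a match is a description of the letters alone.

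The CD9hi library held 5500 barcodes with 120451299 UMIs and the whole-tumour library 3082 barcodes with 48287984 UMIs, and barcodes with fewer than 500 genes, fewer than 1000 UMIs or over 20% mitochondrial UMIs were set aside. The libraries shared 2 barcode sequences, 1 of them a Prrx1-positive cell. The 805 cells held 28041532 UMIs with a median of 33028 per cell (range 2109 to 102084), against a median of 21785 in the Prrx1-free Vim-high barcodes, so the cells chosen for at least 2 UMIs of 1 gene were also the deeper ones. Their median cell had 5344 detected genes and 2.57% mitochondrial UMIs. Neither added reporter sequence bears on where the cells came from. GFP had 0 UMIs in either library, which in these cells allows up to 0.107 CPM (3 counts), and TdTomato had 2 UMIs in the 805 cells and 10 in the library. Trp53 transcripts were counted at 279 CPM in the cells, and the sources used here do not say whether the counted 3′ ends lie outside the deleted part, so this level checks nothing.

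The counts that chose the cells varied widely. Prrx1 had a median of 5 UMIs and a maximum of 53, with 175 cells at exactly 2 UMIs, 342 at 6 or more and 173 at 10 or more. Of the 805 cells, 559 had no Col1a1 UMI and 24 had at least 1000 CPM. At the Col1a1 limit the highest cell inside had 2376 CPM and the lowest past it 6292 CPM, and at the Dcn limit the cell inside had 943 CPM and the one past it 1107 CPM. Only 13 barcodes with at least 2 Prrx1 UMIs and no Ptprc were left out for passing a limit, 5 for Col1a1 and 10 for Dcn, and 3 more were left out for Ptprc. Another 279 barcodes had 1 Prrx1 UMI and lie just outside the rule.

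The markers given for these cells were present in them. Sparc, a secreted matrix glycoprotein, was counted in the single cells at a lower quartile of 201.5 CPM, a median of 477 CPM and a maximum of 9870 CPM, whereas the median Prrx1-free Vim-high barcode had 0 CPM. Summed over cells, Sparc stood at 746 against 109.9 CPM (log2 ratio 2.76, 95% interval 2.72 to 2.80). S100a4, a calcium-binding protein of motile cells, stood at 495 against 80.8 CPM (log2 ratio 2.61). The median cell lay above the upper quartile of the comparison for both genes, although the highest comparison barcodes reached 5866 CPM of Sparc and 5095 CPM of S100a4, so the groups overlap.

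Klra4, a receptor of the Ly49 family known from natural killer cells, stood at 306 against 47.3 CPM (log2 ratio 2.69), and Oaf at 393 against 86.8 CPM (log2 ratio 2.18). The median cell had 169.8 CPM of Klra4 and the median comparison barcode 0 CPM. The other signs of natural killer or T cells were nearly missing: the 12 genes of that list held 25 UMIs in all 805 cells, and 6 of them were at 0. Among 11 Klra genes none but Klra4 reached a mean of 10 CPM, and counts can be split between near-identical copies of this family. Thy1, a surface glycoprotein of fibroblasts and T cells, had the largest ratio of the markers other than Prrx1, 43.0 against 0.81 CPM (log2 ratio 5.72, interval 5.32 to 6.17), with 50 UMIs in the whole comparison. It was nonetheless a marker of a minority, since the upper quartile of the cells was 13.5 CPM and the maximum 1789 CPM.

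Because the cells were deeper, shares of cells with a UMI were compared after thinning each cell to 10000 UMIs, which left out 15 Prrx1-positive cells, 147 comparison barcodes and 3 of 21 Ptprc barcodes (at least 2 UMIs of Ptprc and none of Prrx1, a group chosen after its values were seen and used as a cell type that should lack tumour transcripts). Sparc was then found in 87.2% of the cells (interval 84.7 to 89.5%), in 24.7% of the comparison and in 11.1% of the Ptprc barcodes. Klra4 was found in 67.0%, 24.1% and 0 of 18, which allows up to 16.7%. S100a4, which immune cells are also known to express, gave 70.1% and 31.1%, but also 50.0% of Ptprc barcodes. Thy1 was found in 17.2% of the cells and 0.419% of the comparison. Before thinning these shares were 95.2 against 32.2% for Sparc, 78.0 against 36.5% for Klra4, 88.6 against 45.6% for S100a4 and 25.1 against 0.793% for Thy1, with median depths of 33028, 21785 and 14758 UMIs in the cells, the comparison and the Ptprc barcodes.

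Of the genes looked at for the tumour-cell part of the label, keratins and Cdkn2a, but not Epcam, stood above the Ptprc barcodes. Epcam, the epithelial adhesion molecule, was at 71.4 CPM in the cells and 115 CPM in the Ptprc barcodes, and the thinned shares were 16.2 and 27.8%. Its level in the cells was thus not above that of the Ptprc barcodes. Free RNA was not measured. Krt18, a keratin of simple epithelia, was at 1568 CPM in the cells, 3622 CPM in the comparison and 451 CPM in the Ptprc barcodes. Its thinned shares were 88.6, 99.6 and 27.8%. Cdkn2a, a cell cycle inhibitor gene known to be raised where p53 is lost, was at 1681, 1501 and 208 CPM, with thinned shares of 99.2, 99.8 and 16.7%. The 13 barcodes past the Col1a1 or Dcn limit had 395 CPM of Krt18, below the level of the Ptprc barcodes. They had 1196 CPM of Cdkn2a, with a thinned share of 76.9%. Cdkn2a thus sets the cells apart from the Ptprc barcodes, but does not mark them off from those 13 barcodes, where it was also high.

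Markers of other cell types were low in CPM for the most part, but the fibroblast and pericyte sums lay well above the comparison. The 20 fibroblast markers summed to 166 CPM in the cells, 16.2 CPM in the comparison and 2419 CPM in the 13 barcodes past the limits, and 16 of the 20 were under 10 CPM in the cells. The defining receptor genes Pdgfra and Pdgfrb were at 7.13 and 18.6 CPM in the cells against 123 and 149 CPM in those 13 barcodes. The 10 pericyte and smooth muscle markers summed to 165 CPM in the cells, most of it Rgs5. Their sum was 17.1 CPM in the comparison, 9.33 CPM in the Ptprc barcodes and 218 CPM in the 13 barcodes. The 9 myeloid markers summed to 6.56 CPM in the cells and 34768 CPM in the Ptprc barcodes, and the 8 endothelial markers to 29.3 CPM. Fibroblast markers thus moved with the matrix genes described below, and their part in those results was not tested.

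**Figure D1:**
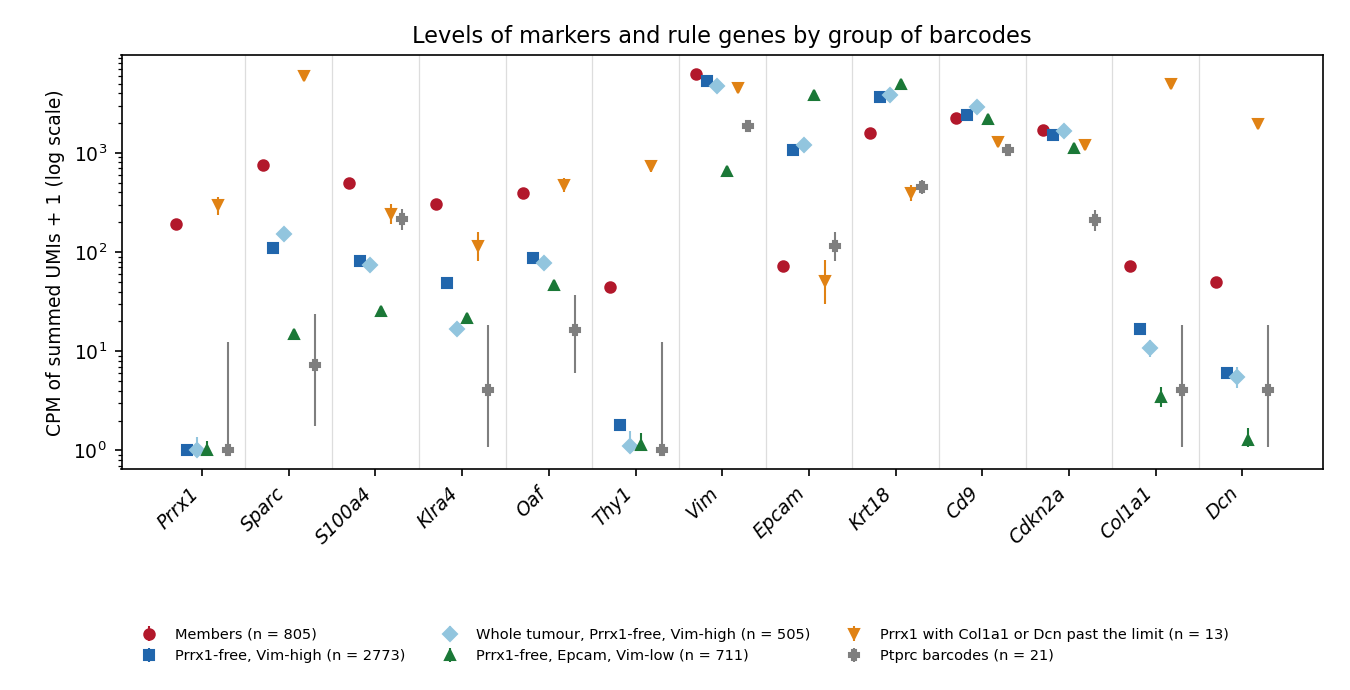
Levels of the 6 markers, the genes of the rule, Epcam, Krt18, Cd9 and Cdkn2a as CPM of summed UMIs plus 1 (log axis) in 6 groups of barcodes, with exact Poisson 95% intervals. The 805 Prrx1-positive cells (red) lie above the Prrx1-free Vim-high barcodes of either library for the 5 markers other than Prrx1, whose difference the rule fixed, near them for Vim, Cd9 and Cdkn2a, and at 71.4 CPM against 1064 CPM for Epcam.

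Against the Prrx1-free Vim-high barcodes, 452 of 7655 measured features (5.9%) were at least 2-fold higher in the Prrx1-positive cells and 539 (7.04%) at least 2-fold lower. Measured means a mean of at least 10 CPM over the groups, with the 6 genes of the rule left out, and the median log2 ratio of all measured features was -0.0064. A gene well below 10 CPM in either group could be measured only by being at least 2-fold higher in the other group. Counts of such genes, over all features and in each list below, are therefore no support by themselves.

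Nefl, the light chain of neuronal neurofilaments, had the highest ratio among features with a mean of at least 50 CPM, at 167.9 against 4.19 CPM (log2 ratio 5.32, interval 5.14 to 5.51). After thinning it was found in 36.7% of the cells and 1.56% of the comparison. Lgals7, the galectin of stratified epithelia, followed at 116 against 3.95 CPM (log2 ratio 4.88). Nefl is a usual marker of neurons and Lgals7 of skin, and both were at 0 UMIs in the Ptprc barcodes, which allows up to 9.33 CPM.

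Matrix genes among the 20 highest were Col3a1, a fibrillar collagen (98.5 against 6.40 CPM), Bgn, a small proteoglycan (142 against 21.0 CPM), Pcolce, which helps to trim procollagens (313 against 37.1 CPM), Tgfbi, a TGF-beta-induced matrix protein (136 against 11.9 CPM), and Nid1, a linker of basement membranes (158 against 31.8 CPM). Tagln, an actin-binding protein of smooth muscle, was at 139 against 10.4 CPM, and Rgs5, a regulator of G protein signalling known from pericytes, at 119.7 against 9.75 CPM. Enzymes of the endoplasmic reticulum were also there, with the peroxidase Gpx8 at 139 against 16.4 CPM and the peroxiredoxin Prdx4 at 153 against 20.2 CPM. The other leading genes were Plac9a (log2 ratio 3.75), Ube2c (3.21), which works with the anaphase-promoting complex, Emb (3.16), a partner of monocarboxylate transporters, Ifitm1 (2.96), Gchfr (2.35), the feedback regulator of GTP cyclohydrolase, and Lmo1 (2.25), a LIM-only transcription cofactor.

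The lowest genes included Mab21l4, Cldn4, Epcam, Krt7, Plac8, Ctse, Pdgfb, Lsr, Csf2, Spint2 and Aldh1a3, with log2 ratios from -4.11 to -3.19. Cldn4, a tight junction claudin, was at 13.8 against 232 CPM, and Krt7, a ductal keratin, at 67.8 against 1009 CPM. Secreted factors among them were Csf2, the growth factor GM-CSF, at 75.6 against 793 CPM, and Pdgfb, a platelet-derived growth factor, at 19.8 against 234 CPM. Aldh1a3, a retinoic acid enzyme used as a marker of tumour-initiating cells, was at 52.9 against 483 CPM. Of these values, those of Cldn4, Krt7 and Epcam in the cells lay below the 103, 159 and 115 CPM of the Ptprc barcodes.

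**Figure D2:**
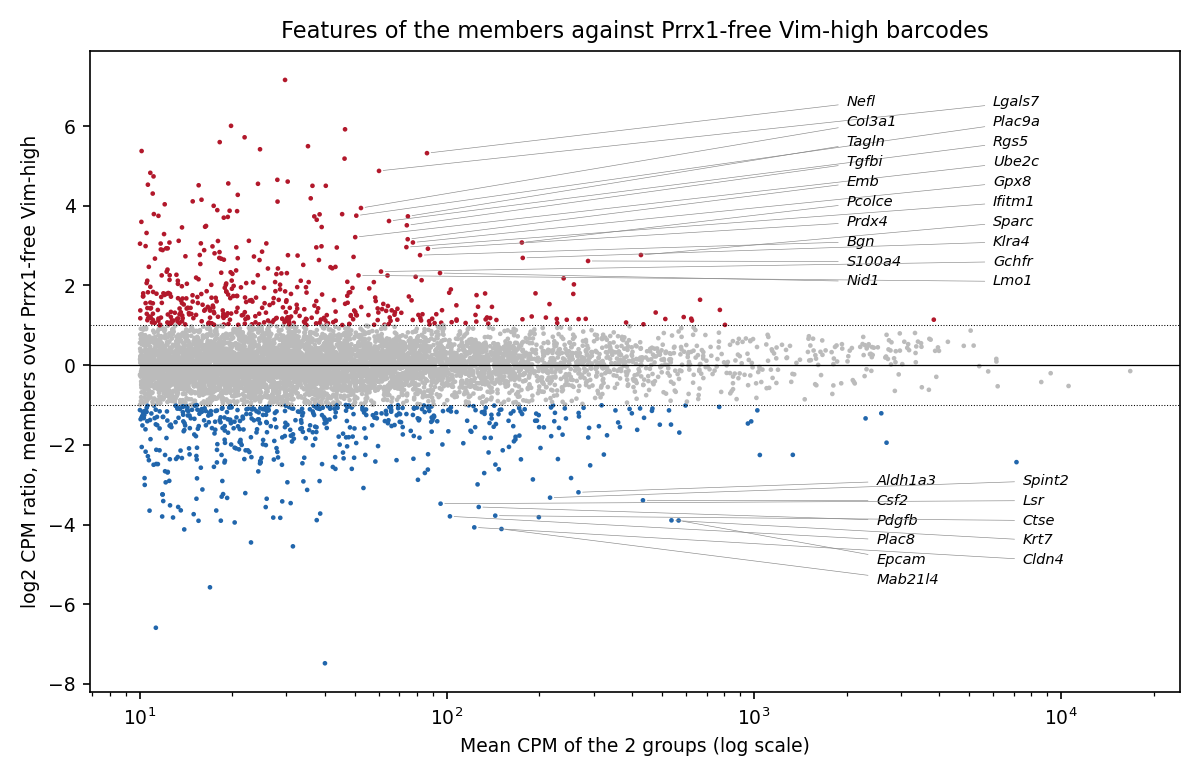
Mean CPM of the groups (log axis) against the log2 CPM ratio of the Prrx1-positive cells over the Prrx1-free Vim-high barcodes for 7655 measured features, with dotted lines at 2-fold and names for the 20 highest and 11 of the 12 lowest features of at least 50 CPM. The 452 features above the upper line (red) and 539 below the lower line (blue) flank a centre near 0, and unnamed points farther out have a mean under 50 CPM.

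Genes of epithelial identity were low in the cells. Of 28 genes in that list 12 were measured, 11 of them at least 2-fold lower and none higher, with a median log2 ratio of -3.12. The gene left was Krt8, the keratin partner of Krt18, at 1040 against 1883 CPM (log2 ratio -0.86). Cdh1, the epithelial cadherin, was at 19.3 against 142 CPM, Cldn7 at 4.74 against 70.6 CPM and Dsp, the desmosomal plaque protein, at 7.95 against 60.2 CPM. Summed over the list the level was 2983 CPM in the cells, 8967 CPM in the comparison and 1278 CPM in the Ptprc barcodes, and Krt8, Krt18 and Krt19 made up most of what the cells had. The cells were thus low in junctions while still holding simple keratins.

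Over all the cells together, the EMT transcription factors other than Prrx1 were not raised as a group. Of 14, 11 were measured, 1 was at least 2-fold higher and 1 lower, with a median log2 ratio of -0.05. Twist1, a basic helix-loop-helix factor, was the one higher, at 169.7 against 79.5 CPM (log2 ratio 1.09, interval 1.04 to 1.15), and was found after thinning in 69.2 against 44.1% of barcodes and 0 of 18 Ptprc barcodes. This count fell to 0 when group A or group C, defined below, was left out. It was 3 among cells with at least 3 Prrx1 UMIs, and 3 with the minimum on Vim and Malat1. Taken singly, groups A and B had 3 higher and 1 lower each, where 8.1 and 10.2% of all measured features were higher. Group C had 1 higher and 2 lower, and D 1 and 1. In groups E and F 10 of the factors were lower, where 41.9 and 41.2% of all measured features were at least 2-fold lower. Prrx2, the close relative of Prrx1, was the one lower, at 48.5 against 153 CPM (log2 ratio -1.66). Zeb1 was at 23.6 against 45.1 CPM, Zeb2 at 73.9 against 76.6 CPM, Snai1 at 18.4 against 9.91 CPM and the chromatin factor Hmga2 at 884 against 648 CPM, all less than 2-fold apart.

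Genes of the mesenchymal state were mixed. Of 19 measured among 20, 8 were at least 2-fold higher and 2 lower, with a median log2 ratio of 0.52. Cdh11, the mesenchymal cadherin, was at 46.5 against 1.98 CPM, Acta2, smooth muscle actin, at 69.3 against 8.76 CPM, and Lgals1, a secreted galectin, at 5293 against 2400 CPM. A gene as low in the comparison as Cdh11 could be measured only by being higher in the cells. Cdh2, the neural cadherin, was at 76.4 against 53.1 CPM, Cd44, a hyaluronan receptor, at 635 against 1037 CPM, and Nt5e, the ecto-5′-nucleotidase, at 45.9 against 335 CPM. The 2-fold lower genes were Nt5e and Thbs1 (log2 ratio -1.67). Groups A, B and C, defined below, had 7, 8 and 7 of the list higher and 2, 2 and 3 lower. In these groups 8.1, 10.2 and 7.99% of all measured features were higher. Group D had 2 higher and 5 lower, where 3.78% of all measured features were higher and 5.68% lower. Groups E and F had 4 and 7 higher and 6 and 5 lower, where 41.9 and 41.2% of all measured features were lower. Vim itself, which the rule asked of the comparison but not of the cells, was at 6210 against 5325 CPM, and 754 of the 805 cells had at least 2000 CPM.

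The fibrillar collagens and matrix genes split. Of 27, 20 were measured, with 13 at least 2-fold higher, 3 lower and a median log2 ratio of 1.501. The higher ones included Col1a2 at 53.9 against 2.14 CPM, Thbs2, a matricellular thrombospondin, at 68.3 against 3.74 CPM, and Fbn1, the fibrillin of microfibrils, at 33.2 against 6.78 CPM. Matrix genes as low in the comparison as Col1a2 and Thbs2 could be measured only by being higher in the cells. The count of 13 was thus partly fixed in advance. The lower ones were Fn1, fibronectin, at 1309 against 3304 CPM, Tnc, tenascin C, at 151 against 513 CPM, and Col12a1 at 9.13 against 29.6 CPM. Because Fn1 is abundant, the summed list was lower in the cells, 4780 against 5936 CPM, while its median was higher. Without group A, defined below, 7 of the list were at least 2-fold higher. Taken singly against the same comparison, group A had 15 genes higher and none lower, B 8 and 6, and C 12 and 4, whereas lower genes outnumbered higher ones in D (3 higher, 9 lower), E (3 and 11) and F (4 and 8). Of all measured features, 8.1, 10.2, 7.99, 3.78, 7.97 and 9.33% were at least 2-fold higher in A to F. The shares lower were 4.98, 8.9, 10.1, 5.68, 41.9 and 41.2%. The lower counts in E and F are therefore not read as a trait of matrix genes. The 13 barcodes past the limits had 3327 CPM of Col3a1 and 4475 CPM of Col1a2, far above the cells.

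Basement membrane genes gave 2 higher and 4 lower of 12 measured among 15. The lower ones included the epithelial laminin chain genes Lama3, at 4.6003 against 47.2 CPM, and Lamb3, at 18.4 against 98.5 CPM. Nid1 and the proteoglycan Hspg2 (log2 ratio 1.32) were higher, and the collagen IV chains Col4a1 and Col4a2 had log2 ratios of 0.20 and 0.18. Group A had 6 of the 12 higher and 3 lower, where 8.1% of all measured features were higher. Group B had 2 and 5, and C and D 2 and 4 each. Groups E and F had none and 1 higher, with 8 and 6 lower, where 41.9 and 41.2% of all measured features were lower. Proteases and inhibitors gave 3 higher and 5 lower of 15. Mmp3, a stromelysin, was at 58.2 against 2.38 CPM and Mmp2, a gelatinase, at 32.7 against 2.04 CPM, whereas Adam12 (log2 ratio -2.35) and the urokinase receptor Plaur (-1.15) were lower. With so little in the comparison, Mmp2 and Mmp3 could be measured only by being higher in the cells. Group A had 5 of the 15 higher and 2 lower, B 2 and 5, C 1 and 7, and D none and 4. Groups E and F had 1 higher each, with 8 and 6 lower, where 41.9 and 41.2% of all measured features were lower.

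Several genes of the pathway in the title of the series were lower in the cells as a whole, unevenly over the groups. Jag1, the Notch ligand, was at 81.8 against 183 CPM (log2 ratio -1.16, interval -1.23 to -1.10), the ligand Dll4 at 5.21 against 25.3 CPM, the target Hes1 at 163 against 374 CPM and the feedback inhibitor Nrarp at 9.70 against 28.1 CPM. Of 8 Notch genes measured among 17, these 4 were at least 2-fold lower, and Rbpj, the DNA-binding partner of Notch, was the 1 higher, at 113 against 51.9 CPM. The receptors Notch1 (log2 ratio 0.24) and Notch2 (-0.14) were less than 2-fold apart. Of the 8 Notch genes, group A had 1 higher and 1 lower, B 1 and 3, C 1 and 4, and D none and 4. Groups E and F had none higher and 7 and 8 lower, where 41.9 and 41.2% of all measured features were at least 2-fold lower. The list summed to 611 CPM in A, 118 CPM in E and 38.7 CPM in F, against 754 CPM in the comparison. The TGF-beta and BMP list, of which 25 of 27 genes were measured, had none higher and 7 lower with a median log2 ratio of -0.57, although 1 was higher among cells with at least 3 Prrx1 UMIs, with the minimum on Vim and Malat1, as the mean over cells, after thinning, with no minimum CPM, and when C, D, E or F was left out. Group A had 4 higher and 2 lower and a sum of 3005 against 2796 CPM in the comparison. Groups B and D had 1 higher each, with 12 and 7 lower, and C had none higher and 13 lower. The Malat1-poor groups E and F had none higher and 23 and 24 lower, beside the same 41.9 and 41.2% of all measured features. Ccn2, a target of the pathway, was at 56.6 against 292 CPM, Id1 at 107 against 281 CPM and the signal transducer Smad3 at 28.4 against 59.7 CPM.

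Among 16 measured tumour-initiating markers of 20, 4 were at least 2-fold higher and 6 lower, with a median log2 ratio of -0.18. Besides Thy1 the higher ones were Sox2, a stem cell transcription factor, at 20.9 against 0.73 CPM, Abcg2, a drug efflux pump, at 17.1 against 8.24 CPM, and Dclk1, a kinase of tuft cells, at 32.8 against 16.1 CPM. Both Thy1 and Sox2 were so low in the comparison that they could be measured only by being higher in the cells. The lower ones included Prom1, which encodes CD133, at 1.498 against 26.4 CPM, Aldh1a3 and Cd24a, at 107 against 240.0 CPM. Cd9, on whose protein the library was sorted, was at 2240 CPM in the cells and 2405 CPM in the comparison. Of 13 tetraspanins measured among 17, none was higher and 2 were lower, Tspan6 (log2 ratio -1.68) and Tspan8 (-1.39).

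Cell cycle genes were higher in the cells as a whole, but not in group D. All 10 measured of 16 G2/M genes were at least 2-fold higher, with a median log2 ratio of 3.43, and 7 of 13 measured S phase genes of 16, with a median of 1.33 and none lower. G2/M genes as low in the comparison as Ccnb1 and Hmmr below could be measured only by being higher in the cells. That all 10 were higher is therefore no support by itself. Over all 16 G2/M genes the sum was 446 against 49.0 CPM. Ccnb1, the mitotic cyclin, was at 29.8 against 1.30 CPM, Hmmr at 21.0 against 1.05 CPM and Rrm2, a ribonucleotide reductase subunit, at 33.5 against 2.25 CPM. Without group B, 5 G2/M genes were at least 2-fold higher. In group D none was higher and 3 were lower, with a sum of 34.9 CPM against 49.0 CPM in the comparison, and of the S phase genes none was higher and 2 were lower, whereas 8 to 10 G2/M genes were higher in each other group. No G2/M gene but Ube2c reached a mean of 50 CPM. Glycolysis and hypoxia genes gave 6 higher and 2 lower of 18 measured, with a median log2 ratio of 0.78, led by the oxygen-sensing hydroxylase Egln3 at 24.5 against 3.68 CPM and the kinase Pdk1 at 19.4 against 5.62 CPM.

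Secreted immune signals were mixed, with 4 higher and 5 lower of 12 measured cytokines and chemokines. Cxcl10, an interferon-induced chemokine, was at 75.5 against 21.2 CPM, Il11 at 42.4 against 18.9 CPM and Mif at 859 against 396 CPM. Besides Csf2, Cxcl16 was lower at 35.1 against 229 CPM and Lif, a cytokine of the interleukin-6 family, at 11.9 against 66.5 CPM. Spp1, osteopontin, was at 5082 against 7337 CPM, less than 2-fold apart.

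**Figure D3:**
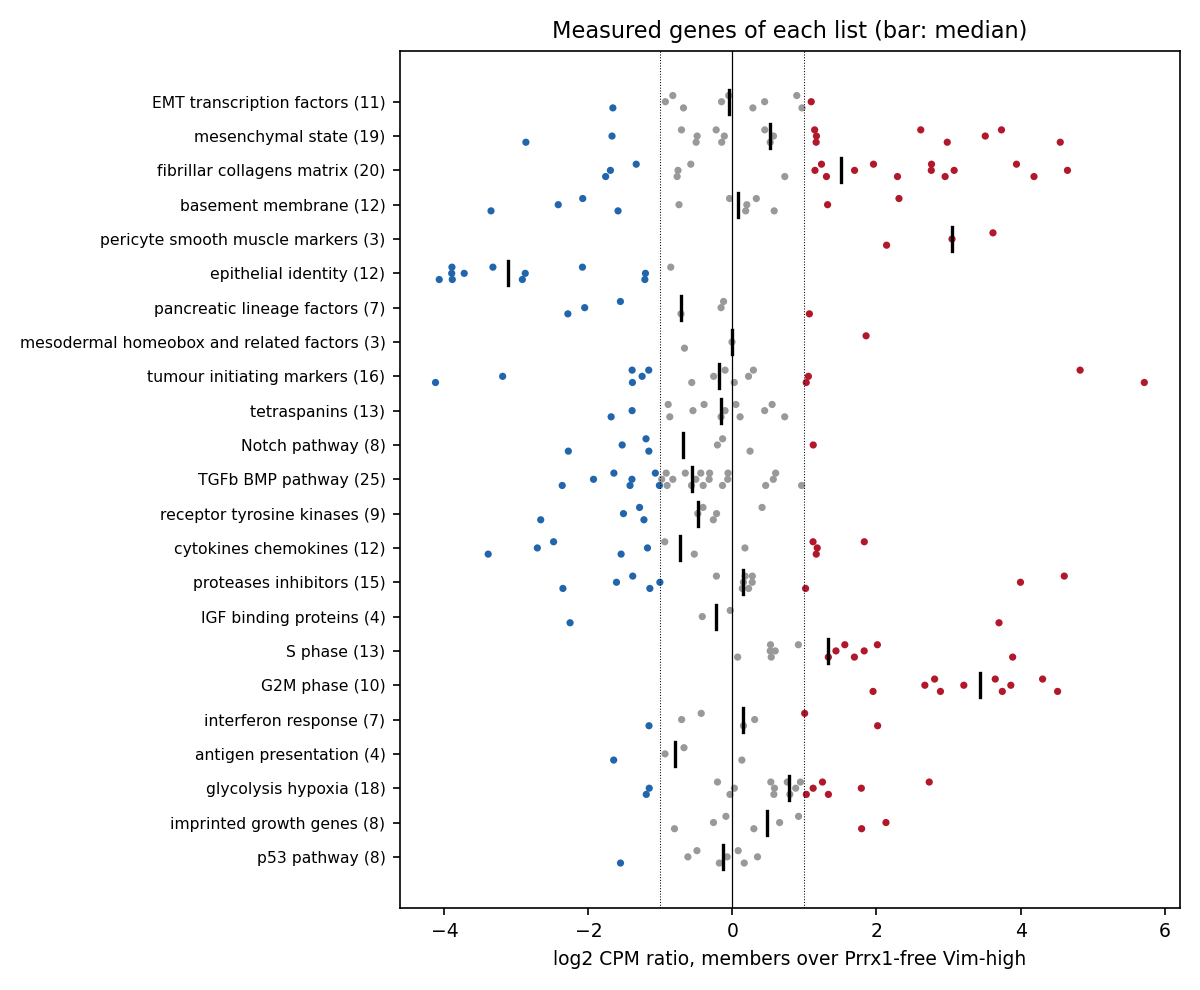
The log2 CPM ratio of each measured gene, Prrx1-positive cells over Prrx1-free Vim-high barcodes, for lists with at least 3 measured genes (number in brackets). Each point is 1 gene, red at least 2-fold higher and blue at least 2-fold lower, and the bar is the median. The epithelial list has its median at -3.12 and the G2/M list at 3.43, while the EMT transcription factors lie around -0.05.

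Among the cells themselves several markers were higher where Prrx1 had more UMIs, and so was depth. From cells with 2 UMIs, through 3 to 5, to 6 or more, Sparc was at 619, 700 and 824 CPM, S100a4 at 347, 387 and 622 CPM, Oaf at 215, 303 and 519 CPM, and Twist1 at 134, 149.7 and 196 CPM. Klra4 was at 239.7, 259.8 and 361 CPM and Col3a1 at 30.2, 64.3 and 147 CPM. Thy1 did not follow this order, at 29.2, 23.8 and 61.1 CPM. Krt18 ran the other way, at 2003, 1753 and 1283 CPM. Median depth was 27201, 30644 and 38283 UMIs in these classes, and its part in these differences was not tested. Barcodes with 1 Prrx1 UMI, outside the rule, had 513 CPM of Sparc, 222 CPM of Klra4 and 161 CPM of Epcam, nearer to the cells than to the comparison for all 3 genes.

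Clustering of all kept barcodes of the library on variable genes, with the 6 genes of the rule left out, gave 17 clusters. Of these, 6 held 793 of the 805 cells (98.5%), and no other cluster was more than 0.932% Prrx1-positive. The same 6 clusters held 255 of the 279 barcodes with 1 Prrx1 UMI and 165 of the 2773 comparison barcodes (5.95%). The cells in them are lettered A to F by size, at 223, 188, 138, 129, 62 and 53 cells. Prrx1-positive cells made up 71.2% of the cluster of group A, 79.7% of B, 59.7% of C, 48.9% of D, 25.2% of E and 14.1% of F. The genes that set the groups apart are those that clustered them, so they are given as a description.

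**Figure D4:**
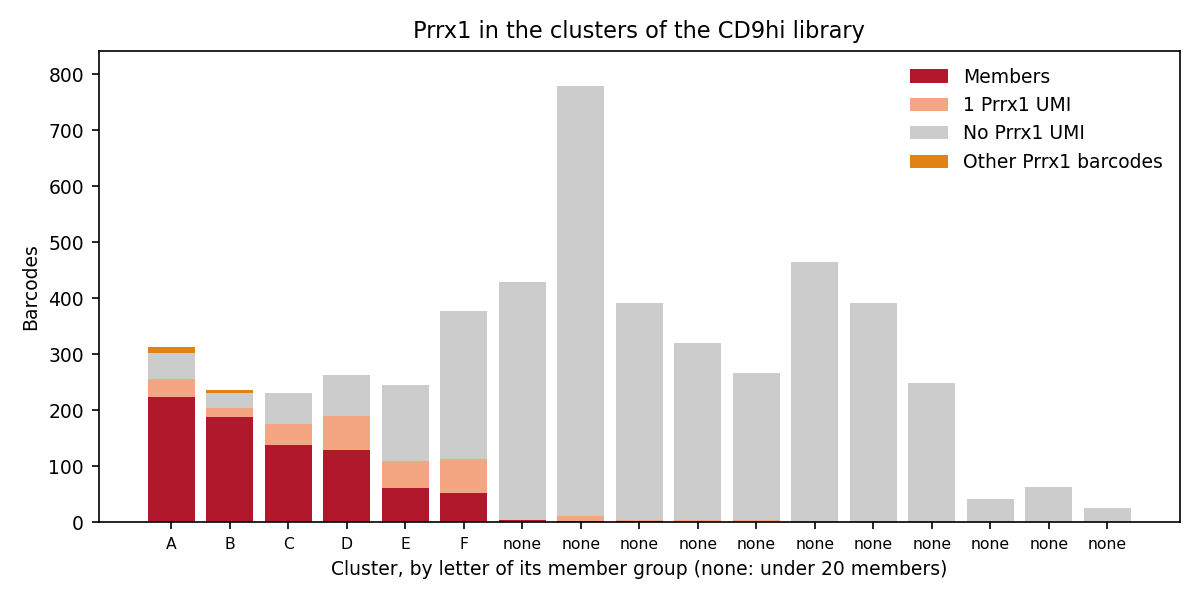
Number of barcodes in each of 17 clusters of the CD9hi library, ordered by Prrx1-positive cells and split by Prrx1 UMIs. The 6 lettered clusters hold 793 of the 805 Prrx1-positive cells (red) and 255 of the 279 barcodes with 1 Prrx1 UMI, and the other 11 clusters are almost wholly without Prrx1.

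Group A had the highest summed level of the matrix list among the groups, 10968 CPM. Against the Prrx1-free Vim-high barcodes, which all 6 groups share as their comparison, 8.1% of its measured features were at least 2-fold higher and 4.98% lower. It had the highest Prrx1 level, 307 CPM against 94.4 to 220.4 CPM in the other groups, Sparc at 1854 CPM, S100a4 at 1159 CPM and Thy1 at 154 CPM, where the other groups had at most 34.0 CPM of Thy1. Its leading genes against the other cells included Sparcl1 (179 against 2.39 CPM), the collagens Col5a2 (337 against 9.45 CPM) and Col6a2 (401 against 14.99 CPM), the transcription factor Ebf1 (108 against 4.37 CPM) and Mmp3 (242 against 10.0 CPM). The interferon-induced genes Isg15 (180.4 against 1.44 CPM) and Ifit1 (127 against 1.31 CPM) led the list as well. Fibronectin stood at 3241 CPM, close to the 3304 CPM of the comparison, and Spp1 at 13494 CPM.

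The cluster of group A also held 11 of the 13 barcodes past the Col1a1 or Dcn limit. Fibroblast markers summed to 427 CPM in group A, 28.4 to 141 CPM in the other groups and 2419 CPM in those 13 barcodes, with Pdgfrb at 74.6 CPM in A. Krt18 was at 730 CPM in A, above the 451 CPM of the Ptprc barcodes, and its thinned share was 68.2%, the lowest of the groups. Cdkn2a was at 1975 CPM in A and found in 214 of 214 thinned cells. The part of fibroblast RNA or of fibroblasts in group A was not tested.

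Group B held the highest Klra4, 571 CPM, and was the deepest, with a median of 43512 UMIs. Of its measured features 10.2% were at least 2-fold higher than in the comparison and 8.9% lower. After thinning, Klra4 was found in 91.4% of its cells and Nefl in 65.9%. Its leading genes included Nppb, the gene of brain natriuretic peptide (157 against 30.5 CPM in the other cells), Pdpn, podoplanin (146 against 36.6 CPM), the homeobox gene Tlx1 (96.7 against 26.9 CPM), and the chromatin and replication genes Hmgb2 (341 against 84.4 CPM) and Pclaf (83.1 against 20.6 CPM). Sox2 was at 62.0 CPM in B and at most 7.20 CPM in the other groups. G2/M genes summed to 953 CPM in B and 938 CPM in F, with 477 CPM in E and 34.9 to 182 CPM in groups A, C and D. Of its 188 cells, 21 were among the 207 barcodes with the highest doublet scores, and over all Prrx1-positive cells this share was 6.46%, against 4.07% of all kept barcodes. With those barcodes removed, 10 G2/M genes were again at least 2-fold higher in the cells. That count is no support by itself, as stated above, and the part of doublets in group B was not tested.

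Group C carried high counts of neighbouring genes of chromosome 15. Against the comparison, 7.99% of its measured features were at least 2-fold higher and 10.1% lower. Of 28 measured genes from Ext1 to Pvt1 in gene order, 26 were at least 2-fold higher than in the other cells, with a median log2 ratio of 2.81, against 1 of 280 other measured genes of the chromosome and a median of -0.35. Mrpl13, a mitochondrial ribosomal protein gene, was at 1302 against 183 CPM, and Myc, the growth regulator, was at 462 CPM in C and at most 102 CPM in the other groups. Of the 6 groups it had the highest Tagln, at 413 CPM. Ccl2, a monocyte chemokine (1.47 against 110.0 CPM in the other cells), and the BMP antagonist Grem1 (8.09 against 109 CPM) were among its lowest.

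Group D had the highest summed level of the epithelial list among the groups, 4617 CPM. It had the smallest share of differing features, with 3.78% of measured features at least 2-fold higher and 5.68% lower. Krt18 was at 2824 CPM, Tspan8 at 477 CPM and Onecut2, a factor of pancreas and liver, at 223 CPM, against 27.2 to 47.0 CPM in groups A to C. Its leading genes were Ifitm1 (760.4 against 24.6 CPM in the other cells), the claudin Cldn18 (206 against 8.58 CPM) and Sprr1a, a small proline-rich protein of squamous epithelia (1776 against 158 CPM). It was low in matrix genes, with Col3a1 at 1.98 CPM, Bgn at 4.94 CPM and Tagln at 0.74 CPM, and Thy1 was at 0.99 CPM. Twist1 was at 186 CPM and found in 76.6% of thinned cells, close to the 77.6% of group A, whereas Epcam, at 55.6 CPM, stayed below its level in the Ptprc barcodes. Klra4 was at 204 CPM.

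Groups E and F were poor in nuclear RNA. Their median Malat1 was 46.6 and 26.8 CPM, against 8197 to 18936 CPM in groups A to D, and of all 805 cells 112 were under 1000 CPM. The comparison was required to have Malat1 and these cells were not. Of measured features, 41.9% were at least 2-fold lower in E and 41.2% in F, and the part of that difference in the rule was not tested. The shares at least 2-fold higher were 7.97% in E and 9.33% in F. EMT transcription factors summed to 710.3 CPM in E and 463 CPM in F, against 2012 to 2657 CPM in the other groups. Klra4 and Sparc lay within the range of the other groups and Lgals1 above it, with Klra4 at 391 and 332 CPM, Sparc at 550 and 336 CPM and Lgals1 at 9513 and 10508 CPM. Group E was led by Ly6a, the surface antigen Sca-1 (415 against 68.3 CPM in the other cells), and by Aqp5, a water channel (111 against 26.0 CPM). Group F was led by Hmgcs1, a sterol synthesis enzyme (269 against 53.1 CPM), by Nefl (571 against 142 CPM) and by the mitotic genes Ube2c (293 against 77.9 CPM) and Ccnb1 (79.9 against 26.6 CPM).

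**Figure D5:**
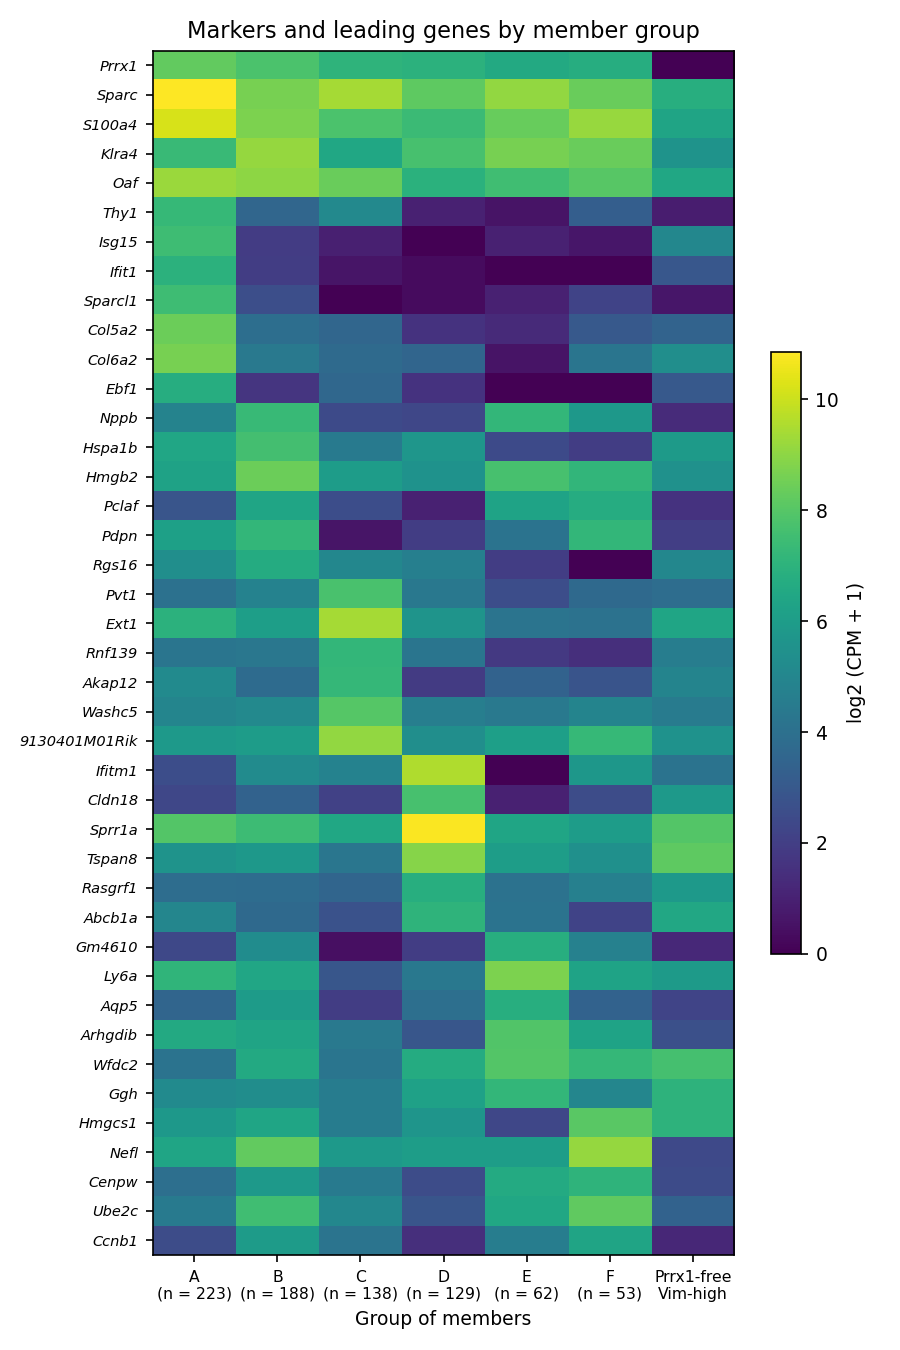
Heat map of log2 (CPM + 1) for the 6 markers and the leading genes of each group of Prrx1-positive cells, in groups A to F and in the Prrx1-free Vim-high barcodes. Sparc is brightest in A (1854 CPM), Klra4 in B (571 CPM), the genes from Ext1 to Pvt1 in C and Ifitm1 in D (760.4 CPM), while Thy1 is nearly dark outside A and C.

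The same rule found 1 of 2550 kept barcodes in the whole-tumour library, 0.0392% (exact Clopper-Pearson interval 0.000993 to 0.218%), and 6 barcodes there had any Prrx1 UMI. The median kept barcode had 17686 UMIs there and 21792 in the CD9hi library, and the part of depth was not tested. Sort and library cannot be told apart with 1 library each, and no difference was tested. Whole-tumour Prrx1-free Vim-high barcodes, 505 in number, had 150.5 CPM of Sparc, 73.6 CPM of S100a4, 15.8 CPM of Klra4 and 0.10 CPM of Thy1, nearer to the CD9hi comparison than to the Prrx1-positive cells for all 4 markers.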

How the data were processed

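The authors deposited raw UMI counts per feature and barcode for 2 droplet libraries of 3′ transcript ends, with no normalization in the files. Reads were processed with Cell Ranger 7.0.0 on GRCm39, per the submitters' processing notes, while the matrices record version 6.1.2, per the file headers, and the counting of intronic reads is not given in the sources used here. Of 55361 features, 1705 share a symbol with another and were kept apart by identifier.

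UMIs were summed over the barcodes of a group and divided by their total (CPM). Log2 ratios had 0.5 counts added and conditional binomial 95% intervals, levels exact Poisson intervals and shares exact Clopper-Pearson intervals, which cover counting error only. With 1 library a group, no test was run. A 2-fold ratio served as a rule of size. Named genes were the 20 highest and 12 lowest ratios at a mean of at least 50 CPM, the given markers, and genes of fixed lists, besides leading genes of each member group, chosen after clustering. A few genes and alleles are not reported here. The members, the lists and the comparison were chosen with earlier results of these data known. Clustering used scanpy 1.11.5 (1996 variable genes, 30 principal components, 15 neighbours, Leiden resolution 0.8). Doublets were not removed in the reported values. Scrublet's automatic threshold marked 1 barcode (0.0196%) and so did not work, and the 207 highest scores were removed in an alternative. The ratio code was tested on simulated data. Chromosomes and gene order came from the GENCODE annotation of GRCm38 by identifier, with no coordinates used. Alternatives changed the Prrx1, Col1a1, Dcn, Vim and Malat1 limits, barcode filter, comparison, averaging, thinning, added count, minimum level, fold and resolution.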

Additional observations from a re-analysis of the deposited data

How the results depend on the processing

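Of 22 alternative settings, 20 recompute the log2 ratios of the 34 named genes, and all 680 of these values kept their sign and 679 were at least 2-fold. Most of these genes were chosen for their ratios in the same counts, so this outcome was nearly fixed in advance. Of 152 recomputed main counts 27 moved and none reversed. Of 2492 other values 593 moved and 2 reversed. With no minimum level, the medians of the mesothelial and Schwann lists became 1.14 and 0.84, where the reported values rest on 1 gene each. The genes at least 2-fold higher in the members numbered 6627 with no minimum level and 106 with a minimum of 50 CPM, and 1064 at 1.5-fold and 221 at 3-fold. The genes at least 2-fold lower in the members numbered 3781, 190, 1138 and 221 in the same order. G2/M genes higher numbered 16 with no minimum, 1 at 50 CPM and 5 outside group B. Epithelial genes lower numbered 26 with no minimum and 7 at 50 CPM. Matrix genes higher numbered 5 at 50 CPM and 7 outside group A. EMT transcription factors higher numbered 3 at 3 Prrx1 UMIs or more, 2 at Col1a1 under 300 CPM and Dcn under 100 CPM, 3 with the Vim and Malat1 minimum, 2 as the mean over cells, 2 after thinning and 3 with no minimum. They numbered 0 outside group A or C, 2 outside B, E or F and 3 outside D. Settings on groups were chosen after seeing the data. Where a minimum level or fold moved a count, more or fewer features were measured or called by construction, and for the other settings the cause was not tested. The rule took 1081 barcodes at 1 Prrx1 UMI or more and 630 at 3 or more, 630 at the lower Col1a1 and Dcn limits, 645 with the Vim and Malat1 minimum, 753 without the highest doublet scores and 799 with the stricter barcode filter. Clusters with at least 20 members numbered 4 at resolution 0.4 and 8 at 1.2, holding 791 members each time. No paired analysis was possible because each group has 1 library. Depth limits genes under 10 CPM and shares in the 21 Ptprc and 13 matrix-rich barcodes.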

Other observations

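Growth genes under parental imprinting gave 2 of 8 measured at least 2-fold higher and none lower, with H19 at 135 against 30.7 CPM and Mest at 17.6 against 5.07 CPM in the Prrx1-positive cells and the Prrx1-free Vim-high barcodes. H19 was at 359 CPM in group A and 256 CPM in group C but at 5.87 to 20.02 CPM in the other groups. Receptor tyrosine kinases gave none higher and 4 of 9 lower, with Egfr, the epidermal growth factor receptor, at a log2 ratio of -1.23 and Ephb2 at -2.66. Group A had 2 of these higher and 1 lower, with a sum of 820 against 665 CPM in the comparison. Groups B and C had none higher and 4 lower each, and D none and 3. All 9 were lower in E and in F, where 41.9 and 41.2% of all measured features were at least 2-fold lower. Of 4 measured IGF binding proteins, Igfbp6 was at 34.8 against 2.67 CPM and Igfbp7 at 362 against 1726 CPM. Interferon-response genes gave 2 higher and 1 lower of 7, summing to 862 CPM in group A and 84.6 to 117 CPM in the other groups. Of 4 measured antigen presentation genes 1 was lower, H2-K1, a class I heavy chain, at 36.8 against 116 CPM.

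Of 7 measured pancreatic lineage factors, Pdx1, whose promoter drives Flp in this model, was the 1 at least 2-fold higher, at 22.8 against 10.9 CPM (log2 ratio 1.07), and Foxa2, Onecut2 and Nkx6-1 were lower. The count of higher lineage factors was 0 with Prrx1 at 1 UMI or more, as the mean over cells, after thinning, at a minimum of 50 CPM and outside group B. Sox9, the ductal factor, was at 391 against 642 CPM, and at 357 to 576 CPM in groups A to D. Of 3 measured mesodermal factors Ebf1 was higher. Of 8 measured p53 pathway genes none was higher and 1 was lower, Cdkn2b (log2 ratio -1.55). Single measured genes of the mesothelial, Schwann, acinar and islet lists, Msln, S100b, Ctrb1 and Iapp, were all lower, with log2 ratios of -1.57, -3.24, -7.48 and -6.59.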
